A study of Homo sapiens with 6 samples.

Results

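Zinc finger genes on human chromosome 19 were compared between YTHDF1 knockout and wild-type cells of A549, a human lung cancer line. The genes were chosen as the protein-coding genes of chromosome 19 whose symbol is ZNF followed by a number, with or without a closing letter, and 247 of the 60617 gene identifiers in the count table met this rule. RNA was sequenced from 3 libraries of A549 cells carrying a knockout of YTHDF1 (KO) and 3 libraries of wild-type A549 cells (WT). The labels give no treatment for either group, and they name neither the clone nor the part of YTHDF1 that was edited. They call the libraries of a group biological replicates without saying whether these were separate clones or cultures, so the p-values weigh the groups against the spread between these libraries, which may be technical. YTHDF1 is a cytoplasmic reader of N6-methyladenosine in mRNA.

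The proteins of these genes carry rows of C2H2 zinc fingers, in which a pair of cysteines and a pair of histidines hold a zinc ion and the residues between them contact DNA. Most of the genes on this chromosome stand in clusters that grew by tandem duplication, and most of their proteins begin with a KRAB box. The KRAB box recruits the corepressor TRIM28 (KAP1), which brings the histone methyltransferase SETDB1 and heterochromatin protein 1 to the bound DNA, often a retrotransposon.

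In the coding sequence of one GENCODE 29 transcript per gene, translated, 211 of the 247 genes had a KRAB box and 36 did not. The number of C2H2 fingers ran from 0 to 36, with a median of 12. The repeat unit is shown for ZNF350, which had the largest rise under the naming rule, and for ZNF714 and ZNF431, the neighbouring pair that fell. Each line holds 1 finger with its linker from the coding sequence, 5′ to 3′, and capitals mark the codons of the zinc-binding cysteines and histidines. The stretches cover coding bases 622 to 699 of ZNF350, 523 to 600 of ZNF714 and 700 to 777 of ZNF431.
ZNF350: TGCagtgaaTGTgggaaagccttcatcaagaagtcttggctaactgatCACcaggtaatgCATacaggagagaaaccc
ZNF714: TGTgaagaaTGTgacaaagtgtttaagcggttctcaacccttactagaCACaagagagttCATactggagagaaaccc
ZNF431: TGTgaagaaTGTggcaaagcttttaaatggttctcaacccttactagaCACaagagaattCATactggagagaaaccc

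Levels are given in CPM, in which each library is brought to one common total, with TMM adjustment. Library totals were 32037107 to 40675628 counts in KO and 27238817 to 40460782 counts in WT, and 3 counts in a library corresponded to 0.0735 to 0.111 CPM. YTHDF1 itself had 48.6, 48.6 and 47.1 CPM in the KO libraries, against 98.0, 104 and 96.4 CPM in the WT libraries. It fell by 1.05 on the log2 scale (SE 0.0526, edgeR adjusted p = 7.84e-18), and its RNA remained detected in every KO library. Of 8 epithelial and A549 marker genes, 3 were higher, 3 lower and 2 not called in KO, and their median log2 fold change was -0.03. Their summed CPM was 8528 to 8858 in KO and 9779 to 10377 in WT, most of it ALDH1A1, with a mean of 5291 CPM in KO and 6070 CPM in WT. AKR1B10 averaged 482 CPM in KO and 1005 CPM in WT, and NQO1 538 CPM in KO and 820 CPM in WT. Among the epithelial genes, CDH1 averaged 34.0 CPM in KO and 10.0 CPM in WT, and KRT8 1797 CPM in KO and 1576 CPM in WT. KRT19 averaged 74.7 CPM in KO and 52.1 CPM in WT, while EPCAM stayed at 1.61 to 2.56 CPM. Of the marker lists of other cell types, 5 fibroblast genes summed to 43.7 to 46.8 CPM in KO and 30.1 to 35.1 CPM in WT, nearly all of it COL1A1, and 5 leukocyte genes to 3.05 to 4.09 CPM in KO and 11.1 to 11.5 CPM in WT, nearly all of it CD14. The leukocyte gene CD3E had 0 counts in all 6 libraries, and the 4 endothelial genes summed to 0.343 to 0.464 CPM in KO and 0.528 to 1.07 CPM in WT. Mitochondrial mRNAs took 3.72 to 3.98% of counts in KO and 5.76 to 5.92% in WT, and the part of this difference in the results below was not tested.

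Zinc finger genes of chromosome 19 were higher in YTHDF1 knockout cells far more often than lower. Of the 247 genes, 185 had enough counts to be tested, 92 of these rose, 12 fell and 81 did not pass a threshold of 0.05 on the p-value of edgeR's quasi-likelihood test, adjusted by the Benjamini-Hochberg method over all 18505 genes tested. Over all genes tested, 27.2% rose and 26.3% fell, which together makes 53.5% called, while 49.7% of the tested zinc finger genes rose and 6.49% fell. The median log2 fold change, KO over WT, was 0.37 over the 185 genes (10th to 90th percentile -0.17 to 1.10) and 0.00 over all genes tested. No test of the group as a whole was made.

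The rises were moderate. Among the 92 genes that rose, the fold ran from 1.14 to 4.46 with a median of 1.65, and 25 rose by at least 1 on the log2 scale, a size that 7.95% of all genes tested reached. Among the 12 genes that fell, the log2 fold change ran from -0.85 to -0.15 with a median of -0.37, and 0 fell by as much as 1, against 4.44% of all genes tested. The 3 KO libraries lay above the 3 WT libraries without overlap for 95 genes and below them for 13, against 29.8% and 29.1% of all genes tested. In this bulk RNA, a change in the number of cells with a transcript and a change in the RNA per cell cannot be told apart.

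Summed over all 247 genes, the zinc finger transcripts made up 2380.1, 2392.3 and 2382.9 CPM in the KO libraries, against 1960.0, 2032.6 and 1992.1 CPM in the WT libraries. The lowest KO library lay above the highest WT library. The sum averaged 2385 ± 6.36 CPM in KO and 1995 ± 36.4 CPM in WT (SD, n = 3 each), a ratio of 1.20. On the library scale this was 0.240 to 0.241% of all counts in KO and 0.194 to 0.201% in WT. Each KO library showed the shift: the median log2 ratio of the 185 genes to the WT mean, with 0.5 CPM added, was 0.33, 0.36 and 0.38 in the KO libraries, and -0.02, 0.04 and -0.02 in the WT libraries.

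**Figure D1:**
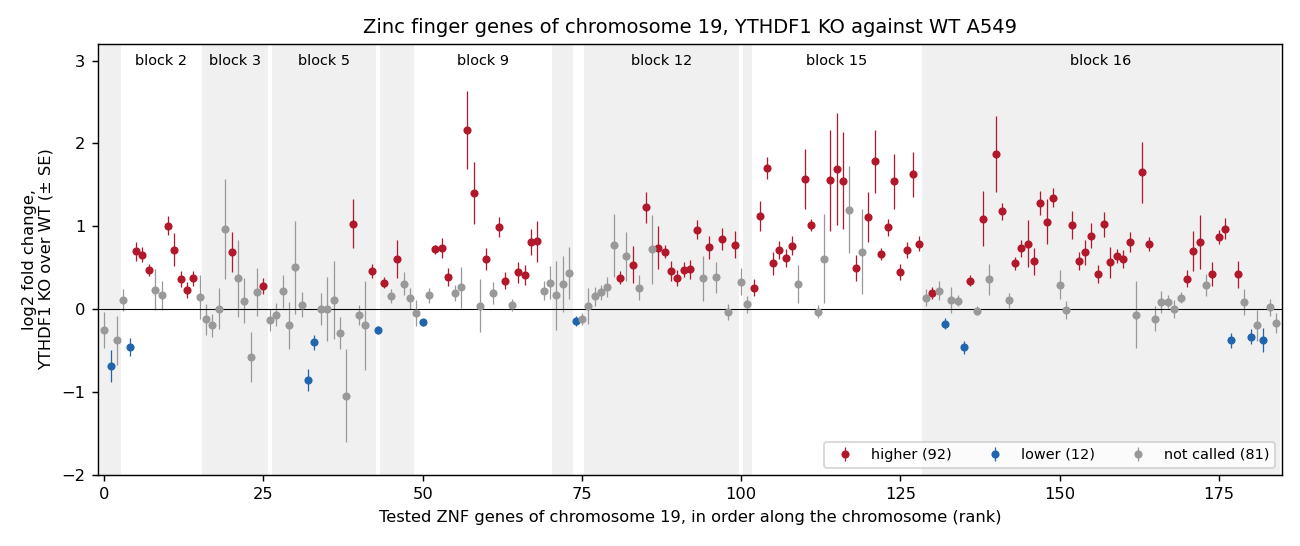
Log2 fold change of each of the 185 tested zinc finger genes (KO over WT, y axis, with the standard error of the edgeR fit), in order along chromosome 19 (x axis, rank). Red points rose (92), blue points fell (12) and grey points did not pass the threshold (81); shaded bands alternate between blocks of neighbouring genes, and block 15 holds 22 red and 0 blue points.

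Genes with a KRAB box made up 83 of the 92 rises and 156 of the 185 genes tested. Among all genes tested, 27.2% rose and 26.3% fell. Of 156 tested KRAB genes 83 rose (53.2%) and 5 fell (3.21%), and their log2 fold change had a median of 0.44. All 25 rises of at least 1 on the log2 scale were of KRAB genes, and 7 of them averaged under 1 CPM. The tested KRAB genes had a median level of 6.38 CPM, against 13.7 CPM for those without the box. The part of level in this difference was not tested. Of 29 tested genes without a KRAB box 9 rose (31.0%) and 7 fell (24.1%), near the shares of all genes, with a median of 0.11. ZNF714, the largest fall, was counted among these because the transcript used lacks the box, but another of its GENCODE 29 transcripts encodes it. With the box counted in any transcript, which moved 5 genes, 2 of them tested, 83 of 158 KRAB genes rose and 6 fell, and 9 of 27 genes without it rose and 6 fell. The summed level of the KRAB genes averaged 1524 ± 14.2 CPM in KO and 1148 ± 33.1 CPM in WT (SD, n = 3 each), a ratio of 1.33. The summed level of the genes without the box averaged 861 ± 8.26 CPM in KO and 847 ± 8.45 CPM in WT, a ratio of 1.02. A SCAN domain, which pairs zinc finger proteins with one another, was found in 3 genes, and 1 of them, ZNF274, rose.

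Outside chromosome 19 the same naming pattern gave 263 ZNF genes, of which 232 were tested. Of these, 67 rose (28.9%) and 38 fell (16.4%), against 27.2% and 26.3% of all genes tested, with a median log2 fold change of 0.08. Their share of rises was thus near that of all genes, and their share of falls was smaller. Those with a KRAB box had 35 rises and 8 falls among 100 tested (median 0.14), and those without it 32 rises and 30 falls among 132 tested (median 0.02). The other protein-coding genes of chromosome 19 had 202 rises (24.6%) and 283 falls (34.4%) among 822 tested, with a median of -0.06. They include zinc finger genes with other symbols, such as ZFP14. The difference between these classes was described by counts and was not tested.

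**Figure D2:**
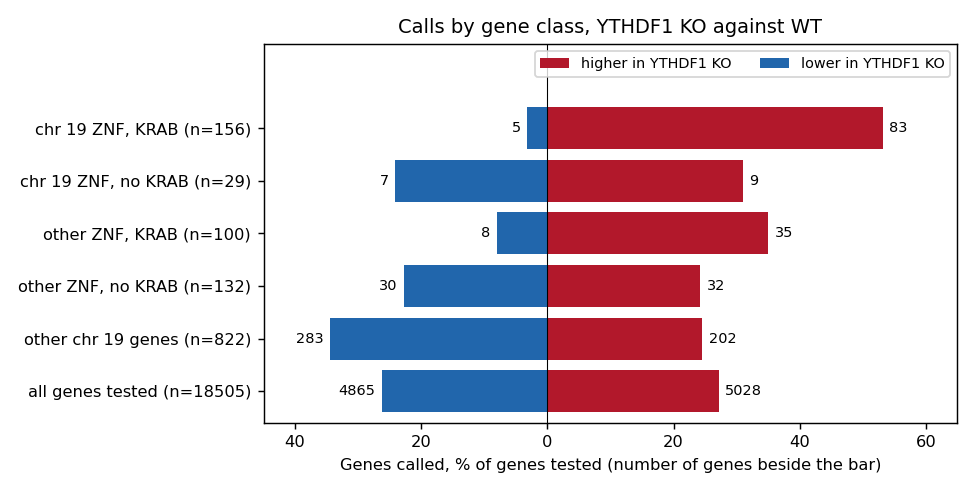
Percentage of tested genes called higher in KO (red, to the right) and lower in KO (blue, to the left) in 6 classes of genes, with the number of genes beside each bar. KRAB zinc finger genes of chromosome 19 had 83 rises and 5 falls, and all genes tested had 5028 rises and 4865 falls.

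Zinc finger genes are expressed at low levels, and the share called depends on the level. The median level over the 6 libraries was 7.08 CPM for the tested zinc finger genes and 12.3 CPM for all genes tested. Among zinc finger genes of 5 to 20 CPM, 58.3% rose (49 of 84), against 30.05% of all genes at that level. At 1 to 5 CPM 39.6% rose (21 of 53), against 23.2%. At 20 CPM or more 53.6% rose (15 of 28), against 35.7%, and under 1 CPM 35.0% rose (7 of 20), against 11.4%. The share that rose was thus higher than that of all genes in each of the 4 ranges of level. The share that fell was 0%, 1.89%, 7.14% and 17.9% from the lowest to the highest range, against 7.73%, 17.3%, 29.7% and 38.1% of all genes.

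**Figure D3:**
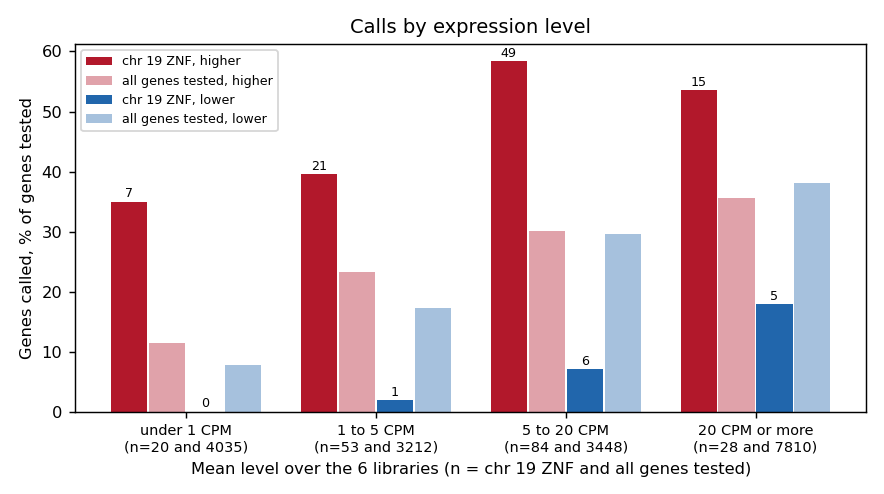
Percentage of genes called higher (red) or lower (blue) in KO, by mean level over the 6 libraries in CPM, for zinc finger genes of chromosome 19 (dark bars, number of genes above) and all genes tested (pale bars). At 5 to 20 CPM, 49 zinc finger genes were higher and 6 were lower.

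The other 62 genes were not tested. Of these, 35 had 0 counts in all 6 libraries and 27 had a few counts, at most 0.341 CPM on average in KO and 0.252 CPM in WT. The KO mean lay above the WT mean for 16 of the 27 and below it for 11. Silent genes were most frequent in block 5 with 14 and in block 3 with 11. Of the 35 genes, 9 shared at least 10% of their exonic bases with another gene on the same strand or at least 10% of their 50-base sequences with another gene, and how reads in common were counted is not stated. ZNF320 is such a gene, with 78.5% of its exonic bases inside another gene on the same strand.

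The largest rise of a gene averaging 1 CPM or more was that of ZNF350, also known as ZBRK1, a KRAB repressor that works with BRCA1. It had 12.7, 15.1 and 12.4 CPM in the KO libraries, against 4.22, 4.53 and 3.70 CPM in the WT libraries. All KO values lay above 10 CPM and all WT values under 5 CPM, a log2 fold change of 1.70 (SE 0.129, edgeR adjusted p = 3.62e-13). ZNF548 had 14.3, 15.4 and 16 CPM in KO, against 5.99, 6.38 and 5.69 CPM in WT, and rose by 1.35 on the log2 scale (SE 0.111, edgeR adjusted p = 2.99e-12). ZNF470 had 16.7, 16.8 and 16.4 CPM in KO, against 7.33, 7.46 and 7.29 CPM in WT, and rose by 1.18 (SE 0.103, edgeR adjusted p = 1.02e-11). In these 3 genes the spread within a group was small beside the gap between the groups. ZNF304, another KRAB zinc finger gene, had 11.0, 11.6 and 11.9 CPM in KO, against 5.72, 5.05 and 3.55 CPM in WT, and rose by 1.28 (SE 0.141, edgeR adjusted p = 2.22e-09).

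The other 6 of the 10 largest rises were of genes with lower levels. ZNF671, known as a gene silenced by promoter methylation in several cancers, had 1.52, 2.52 and 1.92 CPM in KO, against 0.844, 0.148 and 0.824 CPM in WT, a log2 fold change of 1.65 (SE 0.371). ZNF813 had 2.17, 3.48 and 2.87 CPM in KO, against 1.06, 1.00 and 0.724 CPM in WT, a log2 fold change of 1.63 (SE 0.273). ZNF525, which lies in the same block, had 1.80, 1.84 and 1.84 CPM in KO, against 0.580, 0.891 and 0.450 CPM in WT, a log2 fold change of 1.54 (SE 0.333). The groups did not overlap in any of these, but the WT libraries differed among themselves by up to several times for ZNF671. ZNF829 rose by 1.40 on the log2 scale (SE 0.376), ZNF222 by 1.23 (SE 0.187) and ZNF613 by 1.12 (SE 0.186), with edgeR adjusted p-values of 0.00200, 1.14e-06 and 4.55e-06. ZNF222 shared 16.8% of its 50-base sequences with other genes, and ZNF813 11.3%, which makes their levels uncertain.

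Larger fold changes occurred under 1 CPM, and these genes are named after their values were seen. ZNF790 had 0.960, 0.907 and 1.13 CPM in KO, against 0.264, 0.260 and 0.150 CPM in WT, and had the largest log2 fold change of the 185 genes, 2.16 (SE 0.473, edgeR adjusted p = 0.000232). ZNF468 had 1.36, 1.91 and 1.11 CPM in KO, against 0.422, 0.482 and 0.375 CPM in WT, with 55.8% of its 50-base sequences shared with other genes, mostly ZNF320. The gene with the smallest edgeR p of all members was ZNF766, with 39.0, 37.2 and 34.4 CPM in KO, against 18.4, 17.5 and 18.7 CPM in WT. It rose by 1.01 on the log2 scale (SE 0.0755, edgeR adjusted p = 2.26e-13).

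**Figure D4:**
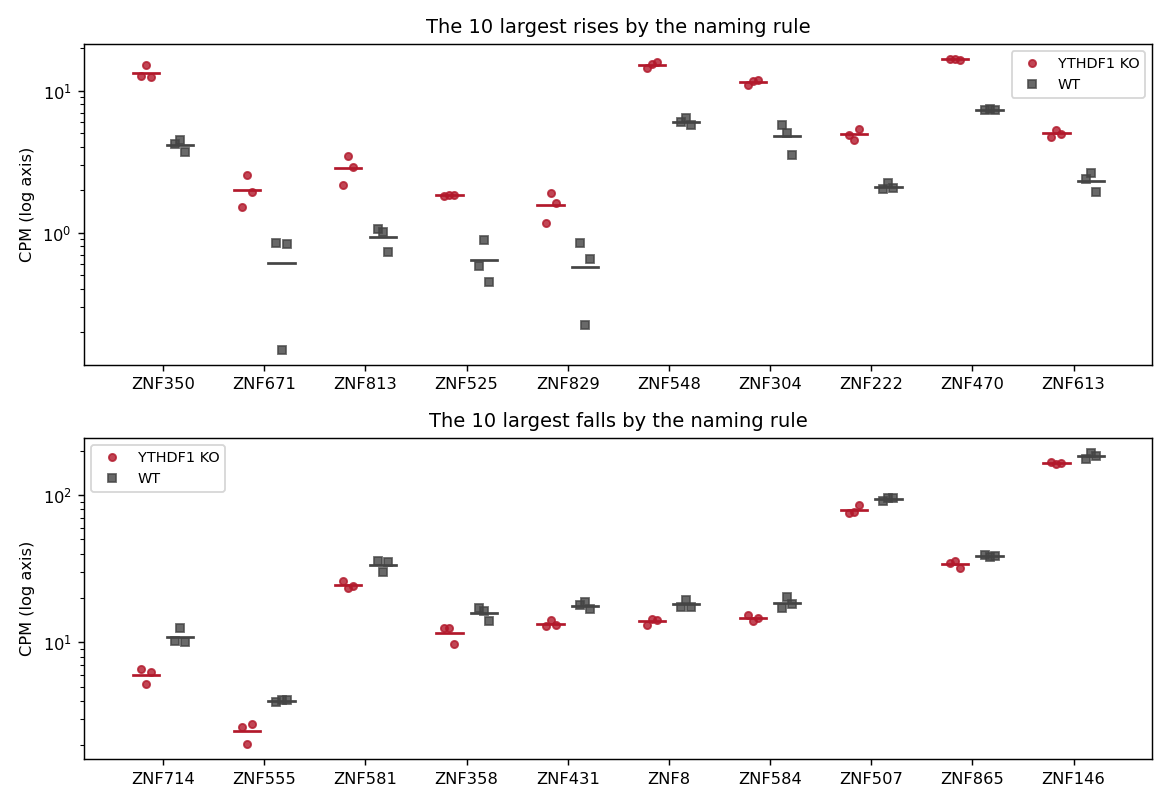
CPM (log axis) of the 10 largest rises (upper panel) and 10 largest falls (lower panel) among called zinc finger genes that averaged 1 CPM or more and whose groups did not overlap. Each point is a library, circles for KO and squares for WT, and bars mark the mean of n = 3; ZNF350 lies at 12.4 to 15.1 CPM in KO and at 3.70 to 4.53 CPM in WT.

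The falls were smaller, and the largest was that of ZNF714. It had 6.6, 5.20 and 6.29 CPM in the KO libraries, against 10.3, 12.5 and 10.0 CPM in the WT libraries, a log2 fold change of -0.85 (SE 0.13, edgeR adjusted p = 1.07e-06). Its neighbour ZNF431, whose mouse counterpart is described as a repressor of the Hedgehog receptor gene Ptch1, had 13, 14.1 and 13.2 CPM in KO, against 17.8, 18.7 and 16.8 CPM in WT, a log2 fold change of -0.40 (SE 0.0922, edgeR adjusted p = 0.000394). These were the only genes of block 5 that fell. ZNF555 had 2.66, 2.03 and 2.80 CPM in KO, against 3.96, 4.04 and 4.05 CPM in WT, a log2 fold change of -0.69 (SE 0.195, edgeR adjusted p = 0.00340). For ZNF581, ZNF358 and ZNF8, with log2 fold changes of -0.46, -0.45 and -0.38, another gene on the same strand covered 23.4%, 20.2% and 20.7% of the exonic bases, so their levels are uncertain.

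Of the remaining falls within the naming rule, ZNF584 fell by 0.33 on the log2 scale (SE 0.0924, edgeR adjusted p = 0.00284) and ZNF507 by 0.25 (SE 0.0527, edgeR adjusted p = 0.000121). ZNF865 fell by 0.18 (SE 0.0666, edgeR adjusted p = 0.0248). That call was lost without WT replicate 1 (edgeR adjusted p = 0.0824), WT replicate 3 (0.0539) or KO replicate 3 (0.156). Of the 12 genes that fell, 12 lie on the plus strand, which holds 102 tested genes with 48 rises. The minus strand held 83 tested genes with 44 rises and 0 falls. The KO libraries lay below the WT libraries without overlap for 11 tested genes of the plus strand and 2 of the minus strand. The strand was looked at after the values were seen, and the difference was not tested.

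The most abundant zinc finger gene was ZNF146, whose protein consists of zinc fingers with no KRAB box. It had 167, 162 and 164 CPM in KO, against 175, 193 and 183 CPM in WT, and fell by 0.16 on the log2 scale (SE 0.0452, edgeR adjusted p = 0.00304). All KO values lay under all WT values by a narrow margin. Per kilobase of exon, its mean level was 39.6 CPM in KO and 44.3 CPM in WT, the highest of the tested members. By the mean of both groups ZNF581 came next, at 14.1 CPM per kilobase in KO and 19.4 CPM per kilobase in WT. In KO alone, ZNF787 (17.4), ZNF580 (16.2) and ZNF579 (16.1) lay above ZNF581. ZNF260, described in rat heart as a regulator of natriuretic factor genes, had 62.8, 60.8 and 65.2 CPM in KO, against 38.6, 38.9 and 37.1 CPM in WT, and rose by 0.72 (SE 0.0587, edgeR adjusted p = 2.07e-12). ZNF787 rose by 0.35 (SE 0.061, edgeR adjusted p = 1.25e-05) and ZNF302 by 0.32 (SE 0.0624, edgeR adjusted p = 5.21e-05). ZNF444 had 75.4, 68.1 and 73.8 CPM in KO, against 73.3, 73.3 and 73.2 CPM in WT, and the groups overlapped (edgeR adjusted p = 0.811).

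Of 29 chromosome 19 zinc finger genes listed for a described role, 24 were tested, and 13 rose, 3 fell and 8 did not pass the threshold, with a median log2 fold change of 0.31. Of these genes 54.2% rose and 12.5% fell, beside the 49.7% and 6.49% of all tested zinc finger genes of the chromosome, against 27.2% higher and 26.3% lower over all genes tested. ZNF274 recruits SETDB1 to the 3′ ends of zinc finger genes themselves. It had 28.2, 29.8 and 26.6 CPM in KO, against 16.3, 13.5 and 16.3 CPM in WT, a log2 fold change of 0.87 (SE 0.0855, edgeR adjusted p = 1.77e-10). ZNF224, a repressor of the aldolase A gene, had 25.8, 28.1 and 27.1 CPM in KO, against 16, 17.7 and 16.5 CPM in WT, a log2 fold change of 0.69 (SE 0.0807, edgeR adjusted p = 6.45e-09). A gene on the opposite strand covers 40.5% of the exonic bases of ZNF224, and whether counting used strand is not stated. ZNF331, which is rearranged in thyroid adenomas, had 21.6, 20.9 and 19.5 CPM in KO, against 11.8, 12.7 and 11.5 CPM in WT, a log2 fold change of 0.79 (SE 0.0914, edgeR adjusted p = 5.97e-09).

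Repressors of retrotransposons were among the listed genes. ZNF91, which represses SVA elements, had 2.01, 1.74 and 2.73 CPM in KO, against 0.686, 1.26 and 1.25 CPM in WT, a log2 fold change of 1.03 (SE 0.298, edgeR adjusted p = 0.00393). ZNF765, which binds LINE-1 elements, had 16.1, 17.9 and 17.6 CPM in KO, against 13.1, 11.9 and 12.9 CPM in WT, a log2 fold change of 0.45 (SE 0.094, edgeR adjusted p = 0.000144). ZNF417 and ZNF587 are near copies that repress HERV-K type elements. ZNF417 had a log2 fold change of 0.37 (SE 0.102, edgeR adjusted p = 0.00283), and ZNF587 had 32.9, 32.4 and 35.3 CPM in KO, against 29.8, 29.5 and 32.1 CPM in WT, which did not pass the threshold (edgeR adjusted p = 0.0986). They share 37.6% and 18.8% of their 50-base sequences with other genes, so how reads were split between them is not certain.

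ZNF471 and ZNF582, known as genes methylated in cancers, rose by 1.87 (SE 0.457, edgeR adjusted p = 0.000795) and 1.09 (SE 0.333, edgeR adjusted p = 0.00605) on the log2 scale. ZNF471 reached 0.662 to 1.52 CPM in KO and 0.186 to 0.369 CPM in WT, and ZNF582 1.30 to 1.74 CPM in KO and 0.624 to 0.816 CPM in WT, so both were under 1 CPM in every WT library. ZNF544 rose by 0.97 (SE 0.128, edgeR adjusted p = 8.25e-08) and ZNF296, which has no KRAB box, by 0.78 (SE 0.164, edgeR adjusted p = 0.000142). Calls for 3 listed genes depended on single libraries. ZNF808, a gene needed for human pancreas development, had 0.526, 0.466 and 0.295 CPM in KO, against 0.264, 0 and 0.0999 CPM in WT (edgeR adjusted p = 0.0351), and lost its call without WT replicate 2 (0.163), WT replicate 3 (0.122), KO replicate 1 (0.126) or KO replicate 2 (0.106). ZNF175, a suppressor of the HIV long terminal repeat, had a log2 fold change of 0.26 (edgeR adjusted p = 0.0303) and lost its call without WT replicate 1 (0.164), KO replicate 1 (0.110) or KO replicate 3 (0.0688). ZNF418 had a log2 fold change of 0.70 (edgeR adjusted p = 0.0150) and lost its call without WT replicate 3 (0.0598) or KO replicate 2 (0.12).

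The listed genes that did not pass the threshold included ZNF473, a component of the machinery that processes histone pre-mRNA, with 12.5, 13 and 13.2 CPM in KO, against 12.3, 13.2 and 11.8 CPM in WT. ZNF675, an inhibitor of TRAF6 signalling, had 8.61, 8.63 and 9.12 CPM in KO, against 9.60, 8.13 and 9.92 CPM in WT. In both genes the groups overlapped. ZNF568, which in mouse controls a placental transcript of Igf2, ranged from 1.27 to 1.99 CPM in KO and from 1.12 to 2.75 CPM in WT. ZNF180, ZNF580 and ZNF43 had log2 fold changes of -0.03, 0.10 and -0.29, with edgeR adjusted p-values of 0.803, 0.195 and 0.216.

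The genes were grouped into 16 blocks, each a run of members with no gap over 1 Mb between neighbours, and the blocks differed in their counts. Block 15, from 51571298 to 53580269 (GRCh38), holds 39 members, of which 27 were tested, 22 rose and 0 fell. Its log2 fold changes had a median of 0.79, and 11 of the rises reached 1. The 22 include ZNF350, ZNF813, ZNF525, ZNF613, ZNF766, ZNF845 and ZNF331. The 5 that did not pass were ZNF480, ZNF616, ZNF880, ZNF600 and ZNF83. Block 12, from 43525497 to 45076588, holds 24 members, all tested, with 13 rises, 0 falls and a median of 0.48. Block 16, at the end of the long arm from 55476332 to 58481230, had 31 rises and 5 falls among 56 tested members (median 0.39), and the falls came to 3 without WT replicate 1 or without KO replicate 3. Block 9, from 36182060 to 37817300, had 12 rises and 1 fall among 22 tested (median 0.37).

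Rises were fewer in 2 blocks of the short arm. Block 5, from 19668796 to 24129961, had 2 rises, ZNF91 and ZNF254, and 2 falls, ZNF714 and ZNF431, among 16 tested of 37 members (median -0.03). Block 3, from 11483427 to 12640098, had 2 rises, ZNF136 and ZNF791, and 0 falls among 10 tested of 25 members (median 0.16). Without WT replicate 1 it had 0 rises and 1 fall, and 1 rise without KO replicate 1, KO replicate 2 or KO replicate 3. Block 2, from 7069444 to 9793180, also on the short arm, had 8 rises and 1 fall among 13 tested of 15 members (median 0.37). The remaining 9 blocks hold 1 to 5 members each, and of their 17 tested members 2 rose and 3 fell.

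The median log2 ratio to the WT mean, with 0.5 CPM added, was 0.65, 0.65 and 0.73 in the KO libraries for block 15, against -0.01, 0.05 and -0.05 in the WT libraries. For block 5 it was -0.15, 0.09 and -0.06 in KO, against -0.01, 0.08 and -0.09 in WT. The KO libraries of block 15 thus stood apart from the WT libraries, and those of block 5 did not. Of the other protein-coding genes inside the spans of the blocks, 0 rose and 2 fell of 3 tested in block 15, 4 rose and 6 fell of 21 in block 16, 5 rose and 6 fell of 21 in block 12, and 5 rose and 13 fell of 33 in block 2. In block 3, 0 rose and 1 fell of 3, and in block 5, 0 of 2 such genes were tested. In block 9, 2 of 3 such genes rose and 0 fell. These 3 are zinc finger genes with other symbols, ZFP14, ZFP82 and ZFP30. The counts of block 16 also include zinc finger genes with other symbols, such as ZSCAN18.

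Some neighbouring members have similar promoters. Promoters of 300 bases, 250 before and 50 after the start site, were taken from RefSeq (GRCh38.p14), and 216 of the 247 members had at least 1. For the 185 tested members, only promoters that shared a minimum number of short exact stretches were aligned. Some pairs at 70% identity or more may therefore be missing. Among the pairs aligned, 34 genes formed 90 pairs with promoters at least 70% identical over a global alignment. These 90 pairs all lay within a block, 45 in block 5 and 39 in block 15. Both genes rose in 32 of these pairs, both fell in 1, the genes moved in opposite directions in 4, neither was called in 19 and 1 of the 2 was called in 34. These pairs share genes, so they are not independent. The closest pair was ZNF714 and ZNF431, both of which fell, with 91.0% identity. Also shown are ZNF91, which rose, as the closest relative of ZNF431 that moved the other way (83.5% identity), and ZNF701 and ZNF845 of block 15 as the closest pair in which both rose (86.0% identity). The windows are chr19:21081953-21082252 for ZNF714, chr19:21141790-21142089 for ZNF431, both on the plus strand, and chr19:23395422-23395721 on the minus strand for ZNF91. Those of ZNF701 and ZNF845, on the plus strand, are chr19:52570037-52570336 and chr19:53333499-53333798. Capitals mark bases not matched in the partner: ZNF714 and ZNF431 are marked against each other, ZNF91 against ZNF431, and ZNF701 and ZNF845 against each other.
ZNF714: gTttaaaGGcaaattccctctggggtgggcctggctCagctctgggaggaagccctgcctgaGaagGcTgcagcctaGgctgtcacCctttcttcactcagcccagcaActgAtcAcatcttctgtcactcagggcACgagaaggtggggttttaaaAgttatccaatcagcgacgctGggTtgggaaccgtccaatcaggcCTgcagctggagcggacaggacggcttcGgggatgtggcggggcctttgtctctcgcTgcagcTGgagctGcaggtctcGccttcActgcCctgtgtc
ZNF431: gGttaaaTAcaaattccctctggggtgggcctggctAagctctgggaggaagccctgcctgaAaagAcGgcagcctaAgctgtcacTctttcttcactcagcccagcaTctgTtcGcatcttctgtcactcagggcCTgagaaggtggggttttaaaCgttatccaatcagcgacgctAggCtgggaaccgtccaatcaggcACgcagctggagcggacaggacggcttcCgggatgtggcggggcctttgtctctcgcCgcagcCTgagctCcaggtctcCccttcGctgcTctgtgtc
ZNF91: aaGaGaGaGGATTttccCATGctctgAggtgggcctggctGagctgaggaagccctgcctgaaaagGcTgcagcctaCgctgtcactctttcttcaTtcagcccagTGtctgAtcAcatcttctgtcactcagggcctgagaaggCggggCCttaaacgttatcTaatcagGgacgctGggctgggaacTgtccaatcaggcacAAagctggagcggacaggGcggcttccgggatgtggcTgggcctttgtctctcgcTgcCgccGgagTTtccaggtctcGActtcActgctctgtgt
ZNF701: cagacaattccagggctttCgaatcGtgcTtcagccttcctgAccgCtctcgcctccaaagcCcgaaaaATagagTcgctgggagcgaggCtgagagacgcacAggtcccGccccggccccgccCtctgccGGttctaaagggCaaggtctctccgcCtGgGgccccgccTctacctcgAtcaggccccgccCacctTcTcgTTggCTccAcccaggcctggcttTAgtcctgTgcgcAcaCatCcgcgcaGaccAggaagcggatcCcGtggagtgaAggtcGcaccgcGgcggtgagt
ZNF845: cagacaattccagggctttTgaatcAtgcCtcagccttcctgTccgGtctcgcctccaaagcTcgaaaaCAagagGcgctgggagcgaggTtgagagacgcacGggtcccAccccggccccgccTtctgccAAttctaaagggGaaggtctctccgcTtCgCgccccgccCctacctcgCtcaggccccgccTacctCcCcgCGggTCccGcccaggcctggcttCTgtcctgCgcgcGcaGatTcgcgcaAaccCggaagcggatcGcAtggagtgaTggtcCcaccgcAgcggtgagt

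ZNF845 had 18.0, 21.2 and 17.7 CPM in KO, against 9.21, 10.4 and 9.27 CPM in WT, a log2 fold change of 0.99 (SE 0.102, edgeR adjusted p = 4.84e-10). ZNF701 had 0.619, 0.490 and 0.860 CPM in KO, against 0.0528, 0.519 and 0.150 CPM in WT, a log2 fold change of 1.55 (SE 0.588, edgeR adjusted p = 0.0260), and its groups overlapped. The call of ZNF701 was lost without WT replicate 1 (edgeR adjusted p = 0.164), WT replicate 3 (0.113), KO replicate 1 (0.0534) or KO replicate 3 (0.147). ZNF254, the other riser of block 5, had 23.7, 23.7 and 24.2 CPM in KO, against 16.2, 17 and 19 CPM in WT, a log2 fold change of 0.46 (SE 0.0831, edgeR adjusted p = 1.99e-05). Its promoter was 84.2% identical to that of ZNF91. Genes of block 5 with like promoters thus included ones that rose, ones that fell and ones that did not pass the threshold.

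The promoters of the members were searched on both strands for 5 motifs, and a promoter was counted once per motif, overlapping matches included. The ETS motif CCGGAAGT was found in 17.9% of the 268 promoters of members, against 4.14% of all 35116 promoters. It was in 25.0% of promoters of members that rose (27 of 108), 15.4% of those that fell (2 of 13), 19.8% of those not called and 3.28% of those not tested. The CCAAT box was in 50% of promoters of members, against 34.6% of all, and by call in 35.2% of those that rose, 53.8% of those that fell, 54.7% of those not called and 68.9% of those not tested. The YY1 motif GCCATNTT was in 11.6% of members' promoters, against 6.58% of all, with 15.7% of those that rose, 7.69% of those that fell and 10.5% of those not called. The NRF1 letters GCGCANGCG were in 13.1%, against 7.52% of all, but in 8.33% of promoters of members that rose, 23.1% of the 13 promoters of members that fell and 18.6% of those not called. The letters GAAANNGAA, most of the interferon-response element, were in 4.10% of members' promoters, against 8.11% of all, and in 4.63% of those of members that rose. These shares are descriptions with no test, and a match is not evidence of binding.

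Promoters with the ETS letters are shown for ZNF470 and ZNF222, both among the 10 largest rises, at chr19:56567218-56567517 and chr19:44025129-44025428 on the plus strand, with the motif in capitals. In both, the letters stand as the reverse complement of CCGGAAGT, at the start site in ZNF470 and upstream of it in ZNF222. The promoter of ZNF865, which fell, also holds the reverse complement at its start site.
ZNF470: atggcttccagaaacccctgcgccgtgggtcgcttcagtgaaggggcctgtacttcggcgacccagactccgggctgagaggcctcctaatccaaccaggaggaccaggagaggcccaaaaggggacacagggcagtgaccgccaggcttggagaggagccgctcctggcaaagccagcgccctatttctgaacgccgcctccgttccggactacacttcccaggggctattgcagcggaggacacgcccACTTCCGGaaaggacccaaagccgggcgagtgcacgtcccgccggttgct
ZNF222: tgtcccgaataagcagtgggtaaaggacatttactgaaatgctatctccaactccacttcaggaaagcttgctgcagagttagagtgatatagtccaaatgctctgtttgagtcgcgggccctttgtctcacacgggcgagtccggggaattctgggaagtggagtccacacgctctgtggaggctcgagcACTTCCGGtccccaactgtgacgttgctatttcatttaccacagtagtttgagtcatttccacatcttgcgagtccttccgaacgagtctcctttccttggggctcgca

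Rises were found at every length of the finger array. Of tested members with up to 9 fingers 23 of 52 rose and 6 fell (median log2 fold change 0.23), with 10 to 14 fingers 40 of 74 rose and 3 fell (0.45), and with 15 or more 29 of 59 rose and 3 fell (0.42). Reads shared between copies can blur the levels of this family. Among 134 tested members with under 10% of 50-base sequences in common with other genes and under 10% exonic overlap on either strand, 73 rose and 7 fell, with a median log2 fold change of 0.40. Among the other 51, 19 rose and 5 fell, with a median of 0.29.

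The cofactors of KRAB zinc finger proteins were mostly lower in the knockout cells. Of 28 genes listed for the TRIM28 corepressor complex, heterochromatin protein 1, histone and DNA methylation and the HUSH complex, all were tested, 17 fell, 3 rose and 8 did not pass the threshold, with a median log2 fold change of -0.17, against 26.3% lower and 27.2% higher among all genes tested. Corepressor genes on the list had a median level of 54.3 CPM, and among all genes of 20 CPM or more 38.1% were lower and 35.7% higher. CBX5, heterochromatin protein 1 alpha, had 152, 149 and 173 CPM in KO, against 422, 401 and 422 CPM in WT, and fell by 1.39 on the log2 scale (SE 0.0484, edgeR adjusted p = 2.74e-22). UHRF1, which guides maintenance DNA methylation, had 25.2, 22.0 and 26.2 CPM in KO, against 61.3, 66.7 and 61.7 CPM in WT, and fell by 1.37 (SE 0.0685, edgeR adjusted p = 6.90e-18). In both genes the highest KO library lay far under the lowest WT library.

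TRIM28, the partner of the KRAB box, had 496, 470 and 458 CPM in KO, against 635, 653 and 635 CPM in WT, and fell by 0.43 on the log2 scale (SE 0.0401, edgeR adjusted p = 4.12e-11). DNMT1, the maintenance DNA methyltransferase, fell by 0.54 (SE 0.0469, edgeR adjusted p = 1.14e-11), and CBX1, heterochromatin protein 1 beta, by 0.49 (SE 0.0484, edgeR adjusted p = 1.67e-10). TASOR, a subunit of the HUSH complex, fell by 0.44 (SE 0.0481, edgeR adjusted p = 1.56e-09). The 3 that rose were MORC3, by 0.56, the DNA methyltransferase DNMT3B, by 0.44, and SETDB1, the H3 lysine methyltransferase, by 0.16. SETDB1 had 34.6, 33.6 and 32.9 CPM in KO, against 31.6, 29.1 and 29.7 CPM in WT, with an edgeR adjusted p of 0.0486. That call was lost with DESeq2 (adjusted p = 0.0539), limma-voom (0.0519), RLE factors (0.0515) and no filter on low counts (0.0813), and without WT replicate 2 (0.147), WT replicate 3 (0.119), KO replicate 1 (0.121), KO replicate 2 (0.0863) or KO replicate 3 (0.0566). RNA levels of these genes and of the zinc finger genes were measured in the same libraries, and whether one bears on the other was not tested.

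**Figure D5:**
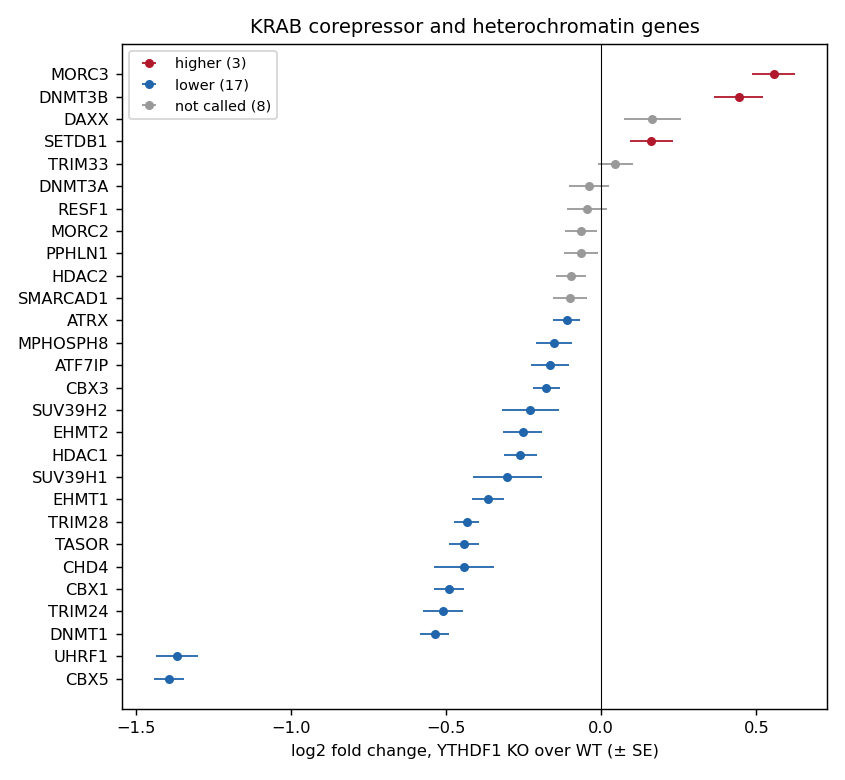
Log2 fold change, KO over WT, of 28 genes of the KRAB corepressor and heterochromatin machinery (points, with the standard error of the edgeR fit), ordered by value. Red points rose (3), blue points fell (17) and grey points did not pass the threshold (8); CBX5 and UHRF1 lie lowest, at -1.39 and -1.37.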

How the data were processed

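Total RNA from A549 cells was made into stranded Illumina TruSeq libraries, per the labels' protocols. The authors deposited a table of raw gene counts, whole numbers for 60617 Ensembl identifiers in 6 libraries. The submitters' processing notes name Trim Galore 0.6.6, STAR 2.7.0d, featureCounts 2.0.1, edgeR 3.32.1 and build GRCh38. Neither the annotation nor the strand setting nor the handling of multi-mapping reads is stated, and each affects a family of similar genes.

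Symbols came from a symbol table and coordinates from GENCODE 29. The analysis of these counts used R 4.3.3 and edgeR 4.0.16 (filterByExpr, TMM, quasi-likelihood test, two-sided, genotype as the only term, Benjamini-Hochberg adjustment over 18505 genes, threshold 0.05), tested on simulated data. KRAB boxes were called at 40% identity or more to a 41-residue consensus. They and fingers were found in translated GENCODE 29 coding sequence, in place of the RefSeq proteins first planned. Promoters were aligned with Biopython 1.88. The interferon-response and NRF1 motifs were each shortened by 1 letter after the shares for the longer forms had been seen.

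The rule for named genes took YTHDF1, the 10 largest rises and 10 largest falls among called members with a mean of at least 1 CPM and no overlap between groups, the 6 most abundant members, the tested members with a described role, and the 6 corepressor genes with the smallest adjusted p. Other names were chosen after their values were seen. The members and lists were chosen with earlier results of these data known. Libraries of a group differed by more than sampling noise (chi-square per degree of freedom 4.20 to 6.09), so all were kept. Alternatives were DESeq2 1.42.0, limma-voom (limma 3.58.1), other scalings, filters and thresholds, a replicate block, a minimum fold and leaving out each library.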

Additional observations from a re-analysis of the deposited data

How the results depend on the processing

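The count of 92 zinc finger genes higher and 12 lower in KO was 88 and 12 with DESeq2, and the same 92 and 12 genes were called with a replicate block, with limma-voom and with RLE factors. With library size as the only scaling, 98 were higher and 10 lower, and the median log2 fold change of all genes was 0.03. Replicate numbers did not pair the libraries, since deviations of same-numbered KO and WT libraries correlated at -0.0260, -0.0143 and 0.00785, and the block called 9703 genes in all, against 9893. Leaving out each library gave 82 to 93 higher and 9 to 12 lower, and a median log2 fold change of 0.37 to 0.42. Requiring a minimum fold of 1.5 (edgeR's glmTreat) left 27 higher and 1 lower of 185 tested members, fewer calls, as the stricter null implies. It left 0 higher and 2 lower of 28 corepressor genes. Of 232 tested ZNF genes outside chromosome 19, 6 were higher and 7 lower. Among all genes tested, 8.50% were higher and 5.47% lower at this setting. The falls among corepressor genes were thus near the share of all genes there. Limiting the members to those with under 10% shared or overlapping sequence, an alternative chosen after seeing the data, left 73 higher and 7 lower because fewer genes were counted. The 3 higher corepressor genes were 2 with DESeq2, limma-voom or RLE factors, which ended the call of SETDB1. Counting a KRAB box in any transcript, also chosen after seeing the data, moved no count of rises. Changes of sign occurred only among named genes that were never called: ZNF444 had a log2 fold change of 0.0085 with library size only and ran from -0.0447 to 0.0291 over the removals of a library, ZNF568 ran from -0.182 to 0.549 and ZNF180 from -0.109 to 0.0268, and the cause was not tested. ZNF808 lost its call with DESeq2 (adjusted p 0.0580) and with no filter on low counts (edgeR adjusted p 0.0553), ZNF865 with library size only (0.0537), and ZNF587 gained one there (0.0496). Depth limits genes under 1 CPM, such as ZNF808 with a standard error of 0.678 on the log2 scale.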

Other observations

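Other zinc finger genes of chromosome 19 fall outside the ZNF naming pattern. Of 18 protein-coding genes with ZFP, ZSCAN, ZIM, ZIK, PEG3 or ZBTB symbols, leaving out ZFP36, whose fingers are of another type, 10 were tested. Of the 10, 6 rose, 0 fell and 4 did not pass edgeR's adjusted p of 0.05, with a median log2 fold change of 0.25. Among all genes tested, 27.2% rose and 26.3% fell. ZFP28 had 12.8, 14.8 and 13.1 CPM in KO, against 9.55, 8.42 and 8.89 CPM in WT, a log2 fold change of 0.60 (SE 0.108). ZFP14 averaged 19.9 ± 0.588 CPM in KO and 14.1 ± 1.61 CPM in WT (SD, n = 3 each). ZSCAN22 averaged 8.42 ± 0.119 CPM in KO and 8.43 ± 1.59 CPM in WT, and was not called. Of 16 ZNF pseudogenes of the chromosome, 2 were tested. ZNF542P had 2.79, 2.55 and 2.85 CPM in KO, against 0.739, 2 and 1.05 CPM in WT, a log2 fold change of 1.15 (SE 0.284), while ZNF56P had a log2 fold change of 0.29 and was not called. These genes were chosen after their values were seen.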
